A study of Hordeum vulgare with 12 samples.

Results

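Nicotianamine synthase joins molecules of S-adenosylmethionine into nicotianamine, a small chelator that binds iron, zinc and copper and moves with them between plant cells. In grasses such as barley (Hordeum vulgare), nicotianamine is also the precursor of the mugineic acid phytosiderophores, which roots secrete to bring iron(III) into solution and take it up as a complex. Barley carries a family of these genes, which is known for its high expression in iron-starved roots. Described here are the 4 nicotianamine synthase genes HORVU.MOREX.r3.4HG0417690, HORVU.MOREX.r3.4HG0382390, HORVU.MOREX.r3.6HG0628880 and HORVU.MOREX.r3.4HG0415050, out of 81687 genes in the count table. They were picked by name, after earlier results from the same libraries had shown them to be far lower in the mutant than in its parent, so that difference is given below as a description with no test. Each had 1 row in the table, and all 4 passed the filter on low counts, through their level in the parent line. By their identifiers, 3 members lie on chromosome 4H and 1 on 6H. Gene names below leave out the prefix HORVU.MOREX.r3.

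The libraries came from dissected root apices of 7-day-old seedlings grown from isolated embryos on half-strength MS medium. The parent is cv. Sebastian, the wild type, and hvatr.g is a mutant of the DNA damage kinase ATR found in a TILLING population made in Sebastian. Seedlings of both lines were moved for 6 h to liquid medium with 0 (mock) or 500 µg/ml zeocin, an antibiotic that breaks DNA strands, which gave 4 groups of 3 libraries. The mutant line is 1 allele from a chemically mutagenised population, so other changes carried by the line cannot be told apart from that in ATR. ATR itself (7HG0748510) was at 12.9 ± 2.81 CPM (counts per 1000000 of the library size after TMM scaling; mean ± SD, n = 3) in Sebastian mock and 16.4 ± 3.82 CPM in hvatr.g mock, a level that does not check the labels because such an allele is a change within the gene. Total counts ran from 36100439 to 74699245 a library, and hvatr.g mock replicate 1 was the deepest. A count of 3 stood for 0.0398 to 0.0845 CPM, the range over the 12 libraries. In these bulk samples, fewer cells that express a gene and less transcript in each cell cannot be told apart.

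In Sebastian the 4 members were transcribed in all 6 libraries, at levels that differed by 7.91-fold to 28.8-fold among the mock libraries and by 12.7-fold to 84.9-fold among the zeocin libraries. 4HG0417690 was at 0.265, 2.68 and 2.67 CPM in mock replicates 1, 2 and 3, and at 73.1, 24.8 and 0.861 CPM in zeocin replicates 1, 2 and 3. Its zeocin replicate 3 thus lay below mock replicates 2 and 3, and the groups overlapped. 4HG0382390 was at 0.555, 5.38 and 2.99 CPM in the mock libraries and at 70.3, 16 and 4.13 CPM in the zeocin libraries, with zeocin replicate 3 below mock replicate 2. 6HG0628880 was at 2.61, 20.6 and 17 CPM under mock and at 176, 56.7 and 13.9 CPM under zeocin. 4HG0415050 was at 0.579, 16.7 and 8.84 CPM under mock and at 198, 64.2 and 3.57 CPM under zeocin. For both of these, too, zeocin replicate 3 lay inside the range of the mock libraries. The highest Sebastian library exceeded the lowest by 275-fold for 4HG0417690, 127-fold for 4HG0382390, 67.6-fold for 6HG0628880 and 341-fold for 4HG0415050. Mock replicate 1 was the lowest and zeocin replicate 1 the highest for each of the 4.

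In hvatr.g the same genes were close to silent. 4HG0417690 had 10, 0 and 0 counts in mock replicates 1, 2 and 3 and no count in any zeocin library. 4HG0382390 had 12, 2 and 0 counts under mock and 1, 5 and 0 under zeocin. 6HG0628880, the member with the most mutant counts, had 47, 1 and 1 under mock and 2, 11 and 18 under zeocin. 4HG0415050 had no count under mock and 0, 2 and 0 under zeocin. Of the member counts in hvatr.g mock, 69 were in replicate 1, 3 in replicate 2 and 1 in replicate 3. That library was the deepest, but its summed member level of 0.915 CPM also stood above the 0.0535 and 0.024 CPM of replicates 2 and 3.

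**Figure D1:**
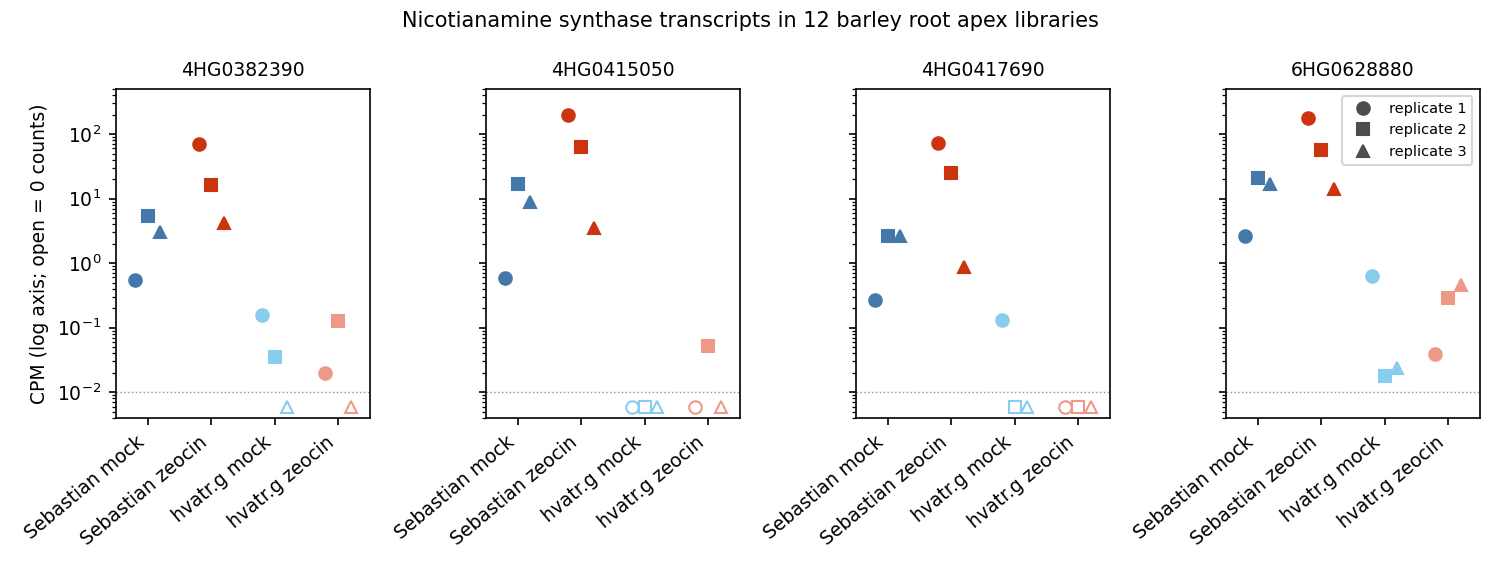
CPM (log axis) of the 4 members in each of the 12 libraries, 1 panel a gene; filled symbols are libraries with counts, the shape gives the replicate, and open symbols below the dotted line are libraries with 0 counts. Sebastian zeocin replicate 1 is the highest library in each panel, at 70.3 to 198 CPM, zeocin replicate 3 lies among the mock libraries, and every hvatr.g library lies below every Sebastian library of the same treatment.

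The order of the groups was the same for all 4 members, with mean CPM highest in Sebastian zeocin, next in Sebastian mock and lowest in the hvatr.g groups. For 4HG0417690 the group means were 32.9 ± 36.8, 1.87 ± 1.39, 0.0442 ± 0.0766 (hvatr.g mock) and 0 CPM (hvatr.g zeocin; SD, n = 3). For 4HG0415050 they were 88.5 ± 99.3 CPM in Sebastian zeocin and 8.69 ± 8.04 CPM in Sebastian mock. Neighbours in this order within 1 genotype overlapped: Sebastian zeocin with Sebastian mock, and hvatr.g zeocin with hvatr.g mock. The reads of these genes may be shared between near-identical copies of the family, and how the counting treated such reads is not stated, so the division of counts among single members is uncertain. The sum over all 9 genes described as nicotianamine synthase depends less on that division. It was 6.3, 81.3 and 62.1 CPM in Sebastian mock and 893, 288 and 40.7 CPM in Sebastian zeocin. In hvatr.g the sum was 1.46, 0.428 and 0.024 CPM under mock and 0.276, 1.11 and 1.14 CPM under zeocin.

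The spread among Sebastian libraries of 1 group was among the widest in the data. This spread was already known when the members were taken up, so the ranks below are descriptions only. The SD of log2 CPM (prior count of 2) of the members was 1.64 to 2.52 in Sebastian mock and 1.83 to 3.3 in Sebastian zeocin, against medians of 0.269 and 0.26 over the 26039 rows tested. In Sebastian zeocin no tested row had a larger SD than 4HG0417690, and 4 rows had a larger one than 4HG0415050. Over the 6 Sebastian libraries together, 4HG0415050 and 4HG0417690 ranked 1 and 2 of the 26039 rows for the span between the highest and the lowest library, 8.31 and 7.88 on the log2 scale, where the median row spanned 0.8. 4HG0382390 ranked 14 with a span of 6.87 and 6HG0628880 ranked 26 with 6.05. Of the 26 rows that spanned at least as much as 6HG0628880, 7 are described as nicotianamine synthase and 6 as 2-oxoglutarate and Fe(II)-dependent oxygenase. The span includes any difference between mock and zeocin. The libraries also ran in 1 order within each treatment: mock replicate 1 lowest, then 3, then 2, and zeocin replicate 3 lowest, then 2, then 1. This order was read from the members, so their own match to it was fixed in advance. It held for 8 of the 9 nicotianamine synthase genes, the exception being 6HG0630450, and for 1.05% of all rows tested. Of the 9, 4HG0382370 was not among the rows tested. Reads shared between near-identical copies may add to the match of the other synthase genes, so nothing is read from this count. Between pairs of members, Pearson's r of log2 CPM over the 6 Sebastian libraries was 0.955 to 0.992 and Spearman's rho 0.943 to 1. Without Sebastian mock replicate 1 and zeocin replicate 1, the libraries farthest from the median, r was 0.869 to 0.98. These are descriptions of 6 libraries that share treatments, and no p is attached to them.

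**Figure D2:**
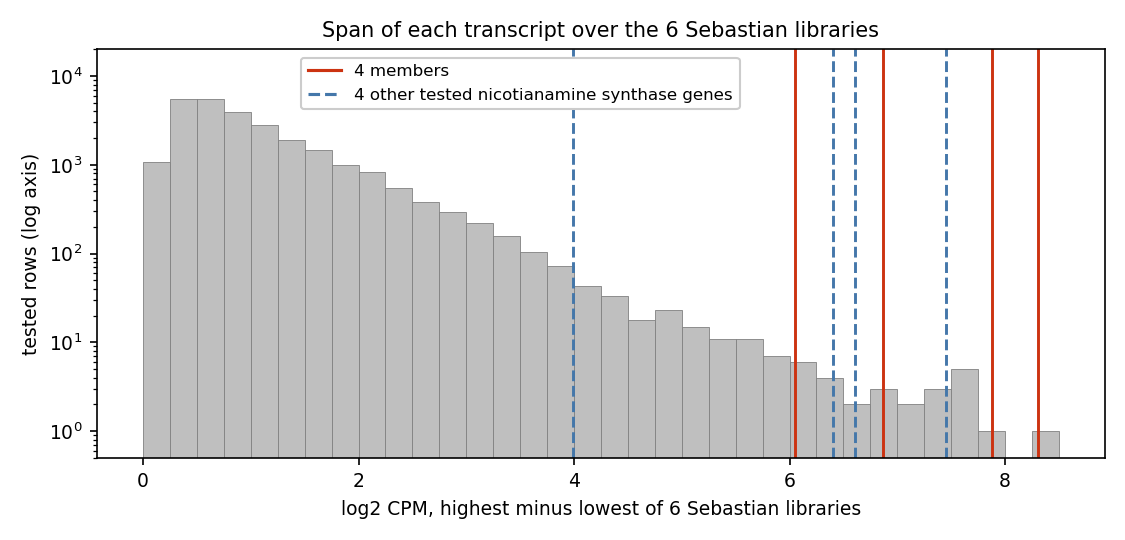
Number of tested rows (log axis) by the difference in log2 CPM between the highest and the lowest of the 6 Sebastian libraries, in bins of 0.25; solid lines mark the 4 members and dashed lines the 4 other tested nicotianamine synthase genes. The members lie at 6.05 to 8.31, where the median row is at 0.8.

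The comparison of zeocin with mock in Sebastian asks how root apices of the wild type answer 6 h of zeocin. The study did not measure strand breaks directly, and it also reports an oxidative stress response to zeocin. None of the 4 members passed the test (edgeR quasi-likelihood, Benjamini-Hochberg adjusted p under 0.05 and an absolute log2 fold change of at least 1), in a comparison where 2.02% of the rows tested were called, 1.12% higher and 0.902% lower. The members were chosen for a genotype difference that involves these same Sebastian libraries, mock and zeocin, and with this comparison already known. This test is thus not independent of the choice. The log2 fold change was 4.15 ± 1.25 (SE) for 4HG0417690 with an adjusted p of 0.141, and 3.35 ± 0.94 for 4HG0382390 with an adjusted p of 0.0942 (edgeR). It was 2.62 ± 0.92 for 6HG0628880 with an adjusted p of 0.211, and 3.35 ± 1.22 for 4HG0415050 with an adjusted p of 0.255 (edgeR). The unadjusted edgeR p was under 0.05 for all 4, as it was for 3247 of the 26039 rows tested. DESeq2 called 0 of the 4 members at adjusted p of 0.202 to 0.441. The outcome turned on single libraries: without zeocin replicate 3, edgeR called 2 members, 4HG0417690 at a log2 fold change of 4.72 (adjusted p = 0.0109) and 4HG0382390 at 3.87 (adjusted p = 0.0182), and with no filter on low counts it called the same 2 at 4.15 and 3.35 (edgeR adjusted p = 0.0189 and 0.013). Without zeocin replicate 1, the highest library, the 4 log2 fold changes were 1.4 to 2.79 and none was called. Other gene lists differed in where zeocin replicate 3 lay. The 7 genes for transport of nicotianamine and phytosiderophores summed to 97.2 CPM in it, within the 77.3 to 147 CPM of the mock libraries. From the mitotic genes that the study names, 4 were taken: the B-type cyclins CYCB1;2.A and CYCB1;2.C and the B-type cyclin-dependent kinases CDKB2;2 and CDKB1;2. The study names further B-type cyclins as lower with zeocin, which were not summed here. The 4 taken summed to 34.6, 26 and 38.7 CPM in zeocin replicates 1, 2 and 3. In the mock libraries they summed to 92.8, 104 and 88.6 CPM, and all 4 were called lower. These were chosen after their values were seen, and the part of that library in the members' result beyond the values without it was not tested.

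**Figure D3:**
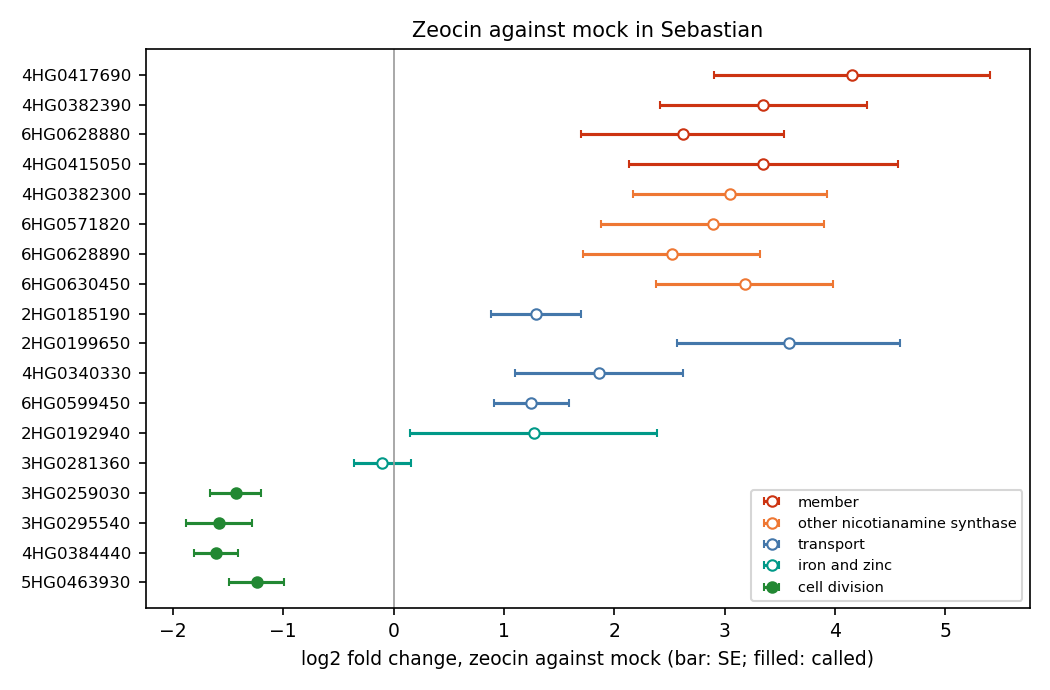
log2 fold change (horizontal axis, bars ± SE) of zeocin against mock in Sebastian from the fit of 12 libraries, for the tested genes of 5 lists; filled points passed the test and open points did not. The 8 nicotianamine synthase genes lie at 2.52 to 4.15 with wide errors and none passed, while the 4 mitotic genes lie at -1.61 to -1.24 with narrow errors and all passed.

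In hvatr.g, zeocin and mock libraries held so few member counts that no fold change is given for 3 of the 4. For 6HG0628880 the mean was 0.222 ± 0.348 CPM under mock and 0.26 ± 0.209 CPM under zeocin (SD, n = 3). edgeR called 0 of the 4 members in this comparison, with adjusted p of 0.863 to 0.994, where 3.44% of the rows tested were called, none had an unadjusted p under 0.05 and DESeq2 called 0. The difference between the zeocin responses of the genotypes gave adjusted p of 1 for each member (edgeR). That test rests on the same few mutant counts, so it cannot show whether the responses were alike. For 6HG0628880 the difference was -2.72 ± 1.84 (SE) on the log2 scale. Over all rows, 0 of the 26039 had an adjusted p under 0.05 in that edgeR test, with 1120 at an unadjusted p under 0.05. DESeq2 gave 115 rows with an adjusted p under 0.05, none of them a member (adjusted p of 0.695 to 1).

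Between genotypes, all 4 members were lower in every hvatr.g library than in any Sebastian library of the same treatment. Libraries did not overlap in this direction for 15.6% of the rows tested under mock and for 19.4% under zeocin, and since the members were chosen for this difference, nothing is read from their count. Under mock, the mean CPM was 42.3-fold lower in hvatr.g for 4HG0417690, 45.8-fold lower for 4HG0382390 and 60.4-fold lower for 6HG0628880. 4HG0415050, with no count in hvatr.g mock against 946 in Sebastian mock, was at least 158-fold lower when each hvatr.g library was set to 3 counts. Nearly all mutant counts under mock came from 1 library: without hvatr.g mock replicate 1, the log2 ratio of means moved from -5.52 to -7.38 for 4HG0382390 and from -5.92 to -9.32 for 6HG0628880, and 4HG0417690 had no mutant count left. Without hvatr.g mock replicate 3 the ratio of 4HG0382390 was -4.93. Without Sebastian mock replicate 2, the highest of its group, the ratio was -4.77 for 4HG0382390 and the bound for 4HG0415050 moved from -7.3 to -6.42. Under zeocin, 4HG0382390 was 607-fold lower and 6HG0628880 was 316-fold lower. 4HG0417690 had no count in hvatr.g against 3542 in Sebastian and was at least 464-fold lower. 4HG0415050 had 2 counts against 9520, a ratio of pooled counts of 5510 with a 95% interval of 1520 to 45500, which covers counting error only. These zeocin values carry the highest Sebastian library: without zeocin replicate 1 the log2 ratio of means moved from -9.25 to -7.65 for 4HG0382390 and from -8.3 to -7.08 for 6HG0628880. The bound for 4HG0417690 moved from -8.86 to -7.49 and the ratio of 4HG0415050 from -12.32 to -10.92. Without hvatr.g zeocin replicate 2 the ratio of 4HG0382390, then resting on 1 mutant count, was -11.58, and 4HG0415050 had no mutant count left, with a bound of -10.36. Without hvatr.g zeocin replicate 3 the ratio was -8.66 for 4HG0382390 and -8.99 for 6HG0628880.

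Another 5 genes carry the same description in the tables used. All of these descriptions come from lists that the study drew up on differences among these libraries, so their lower level in hvatr.g is not independent evidence. The 4 that passed the filter were 4HG0382300, 6HG0571820, 6HG0628890 and 6HG0630450. Their spans over the 6 Sebastian libraries were 6.61, 7.45, 3.99 and 6.4 on the log2 scale, ranking 16, 8, 192 and 21 of the rows tested. 6HG0628890 thus spanned less than every member, and held only 4 to 9 counts in the Sebastian mock libraries. 6HG0571820 was at 1.81, 31.5 and 27.4 CPM in Sebastian mock, at 325, 110 and 14.3 CPM in Sebastian zeocin, and at 0 to 0.633 CPM in hvatr.g. 6HG0630450 was at 0.121, 0.845 and 1.36 CPM in Sebastian mock and at 14, 5.49 and 1.52 CPM in Sebastian zeocin. It was the 1 tested gene of the family whose zeocin libraries all lay above the mock libraries, which held for 6.98% of rows, and its log2 fold change of 3.18 ± 0.8 (SE) had an adjusted p of 0.0551 (edgeR). 4HG0382300 had a log2 fold change of 3.05 and 6HG0628890 one of 2.52, with adjusted p of 0.103 and 0.169 (edgeR). edgeR called 0 of these 4, all at an unadjusted p under 0.05, and DESeq2 called 1. That unadjusted limit was met by 3247 of the 26039 rows tested. 4HG0382370 held 0 to 165 counts in Sebastian libraries, no count in hvatr.g, and was left out by the filter.

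Nicotianamine and its metal complexes cross membranes through yellow stripe-like transporters, and phytosiderophores leave grass roots through carriers of the zinc-induced facilitator-like family. Of 7 genes with such descriptions, 4 were tested. 4HG0340330, described as ZINC INDUCED FACILITATOR-LIKE 1, was at 7.16 to 27 CPM in Sebastian mock, 7.78 to 108 CPM in Sebastian zeocin, and 0.456 to 2.11 CPM over the 6 hvatr.g libraries. 6HG0599450, described as yellow stripe 1A, which in barley carries iron phytosiderophore into the root, was at 17.5 ± 5.52 CPM in Sebastian mock and 41.5 ± 23.6 CPM in Sebastian zeocin (SD, n = 3). In hvatr.g it was at 12.7 ± 1.08 and 17.7 ± 0.44 CPM. 2HG0185190, described as yellow stripe-like 9, was at 67.9 ± 25.2 and 166 ± 115 CPM in the Sebastian groups and at 33.8 ± 5.5 and 38.2 ± 2.65 CPM in hvatr.g. 2HG0199650, described as yellow stripe-like 12, reached 0.451 CPM in Sebastian mock and 3.92 CPM in Sebastian zeocin and did not exceed 0.059 CPM in hvatr.g. Under zeocin the fitted log2 difference between genotypes was -1.23 for 6HG0599450 and -2.12 for 2HG0185190, nearer 0 than the -5.68 of 2HG0199650 and the -5.96 of 4HG0340330.

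For zeocin against mock in Sebastian, edgeR called 0 of the 4 transport genes. All 4 had an unadjusted p under 0.05, as 3247 of the 26039 rows tested did. Their median log2 fold change was 1.58, where that of all rows was 0. DESeq2 called 2, 2HG0185190 and 6HG0599450. With the replicate number as a block, 6HG0599450 was called in a fit of the 6 Sebastian libraries at a log2 fold change of 1.14 (edgeR adjusted p = 0.0293), and without zeocin replicate 3 all 4 were called. Between genotypes, 1 of the 4 was called lower under mock, 4HG0340330, and 4 of 4 under zeocin, where 4.58% and 5.56% of all rows were called lower. Without hvatr.g mock replicate 2, 4HG0340330 was not called. The list was drawn from genes the study picked on these libraries, and its counts are no independent evidence. Of 2 tested genes for iron and zinc transport, the zinc transporter ZIP10 (3HG0281360) was at 4.58 ± 1.85 CPM in Sebastian mock, 4.26 ± 0.29 in Sebastian zeocin, 3.22 ± 0.502 in hvatr.g mock and 1.43 ± 0.281 in hvatr.g zeocin (SD, n = 3). ZIP10 fell with zeocin in hvatr.g, by 1.16 on the log2 scale with an adjusted p of 0.0222 (edgeR), in a comparison where 2.15% of rows were called lower, and did not follow the order of the members in Sebastian. Under zeocin it was called lower in hvatr.g than in Sebastian, as the members were, at a log2 difference of -1.57, and it comes from a list the study picked on these libraries. The vacuolar iron transporter-like gene 2HG0192940 was at 0.0241 to 1.82 CPM in Sebastian mock and 0.633 to 3.42 CPM in Sebastian zeocin, and did not pass the test in any of the 4 comparisons.

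The rows most like the mean profile of the members were chosen by Pearson's r of log2 CPM, leaving out the synthases. Over the 6 Sebastian libraries the 5 highest were 4HG0409560 (r = 0.998), 1HG0085780 (r = 0.997), 7HG0752310 (r = 0.996), 1HG0072590 (r = 0.994) and 4HG0409530 (r = 0.986). Of these, 4 are described, 1HG0072590 as an aminotransferase-related protein and the others as 2-oxoglutarate and Fe(II)-dependent oxygenases. In barley, an aminotransferase and dioxygenases act after nicotianamine synthase in making mugineic acids, but the tables do not say whether these are those genes. 1HG0072590 was at 1.38, 14.3 and 6.89 CPM in Sebastian mock, at 107, 44.3 and 7.22 CPM in Sebastian zeocin, and had 0 to 4 counts in any hvatr.g library. 7HG0752310 was at 2.03, 24.3 and 12.6 CPM and at 188, 83.3 and 10.4 CPM in the same Sebastian libraries and at 0 to 0.698 CPM in hvatr.g. Both show the low mock replicate 1 and the fall from zeocin replicate 1 to 3 seen in the members. They were chosen for this likeness in the same libraries, so it is no separate result. The undescribed 1HG0085780 shared the shape but not the size, with 1.5 to 2.21 CPM over the Sebastian libraries, and its r says little about its level. Over all 12 libraries the 5 highest were 4HG0409530 (r = 0.989), 7HG0752340 (r = 0.988), 1HG0072590 (r = 0.985), 7HG0752310 (r = 0.982) and 4HG0340330 (r = 0.981), where the distance between genotypes sets much of r.

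Identifiers number genes along each chromosome, so neighbouring numbers show whether the pattern covered a stretch. Of 67 other genes within 5 identifiers of a nicotianamine synthase gene, 33 were tested. Under mock 0 of the 33 were called between genotypes in either direction, where 8.45% of all rows were, and under zeocin 1 was, where 9.02% were. The unadjusted p was under 0.05 for 6 under mock and 9 under zeocin, as it was for 7495 and 7827 of the 26039 rows. DESeq2 called 1 of the 33 in each comparison. The called gene was 6HG0571840 in each case, described as orotate phosphoribosyltransferase and placed 2 identifiers from 6HG0571820, at 24.8, 6.15 and 0.811 CPM in Sebastian zeocin. The 31 tested neighbours with more than 3 counts in each Sebastian library spanned 1.14-fold to 3.86-fold, with a median of 1.54-fold. That limit leaves out 6HG0571840, which had 3 counts in its lowest Sebastian library. Its span of 7.72 on the log2 scale ranked 3 among all rows tested. 4HG0382380, next to 4HG0382390, held 126 to 242 counts in Sebastian and 162 to 236 in hvatr.g. The wide span of the members was thus not shared by most of the tested genes numbered beside them. Besides 6HG0571840, some untested rows of low counts also differed widely between libraries: 4HG0382340, 4HG0382350 and 4HG0382360 reached 73, 84 and 63 counts in a Sebastian library and at most 1 in hvatr.g. These carry consecutive identifiers, and the next is the synthase gene 4HG0382370, with up to 165 counts in Sebastian and none in hvatr.g. 6HG0571830, between 6HG0571820 and 6HG0571840, reached 16 counts in Sebastian and had none in hvatr.g. Whether such runs share the pattern of the synthases was not tested.

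**Figure D4:**
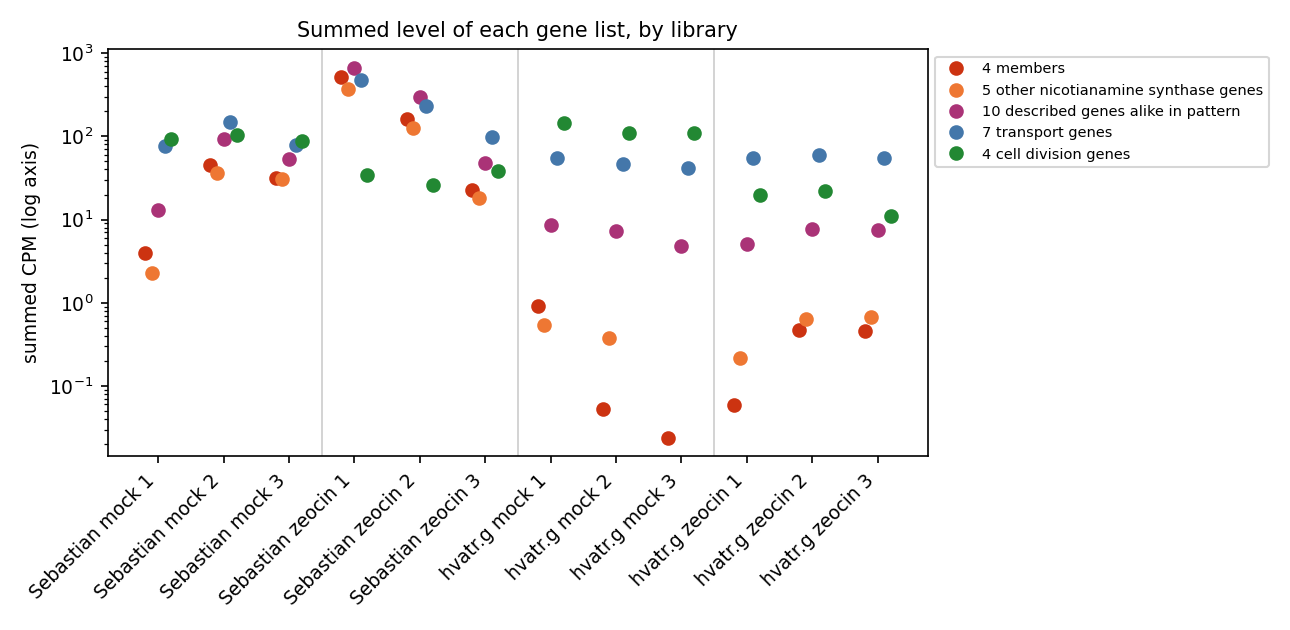
Summed CPM (log axis) of 5 gene lists in each of the 12 libraries; points of 1 library are set slightly apart, and the sum of 0 for the 5 other synthase genes in hvatr.g mock replicate 3 is not drawn. Both synthase lists and the 10 described genes alike in pattern run from 2.29 to 12.9 CPM in Sebastian mock replicate 1 to 376 to 668 CPM in zeocin replicate 1. The 10 genes were picked for this likeness, so their running with the synthases is no result. Of the 10, 3HG0321630 was at 7.48 to 19.1 CPM in Sebastian mock and 4.82 to 7.56 CPM in hvatr.g mock. It makes up most of the sum of the 10 in hvatr.g mock, which was 8.64, 7.37 and 4.82 CPM. The 7 transport genes also have their highest sum, 473 CPM, in Sebastian zeocin replicate 1, while the 4 mitotic genes are split by treatment.

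Among the lists of other tissues, only leaf genes were matched by the descriptions used. The 5 leaf genes, 4 chlorophyll a-b binding proteins and 1 small chain of ribulose bisphosphate carboxylase, summed to 0.458 to 1.24 CPM in Sebastian mock and 0.28 to 2.36 CPM in Sebastian zeocin. In hvatr.g they summed to 0.0265 to 0.216 CPM under mock and 0.0517 to 0.177 CPM under zeocin, and the carboxylase gene was at 0 in every hvatr.g library. The 1 leaf gene that passed the filter was called lower in hvatr.g under both treatments, and the list comes from genes the study picked for that difference. Leaf genes were thus near 0 everywhere and also lower in hvatr.g, and their part in the genotype difference was not tested. Within Sebastian mock the leaf sum ran in the order of the synthase sum, replicate 1 lowest, then 3, then 2. Within Sebastian zeocin it ran in the reverse order, with the highest leaf sum and the lowest synthase sum in replicate 3.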

How the data were processed

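The authors trimmed read pairs of poly(A) RNA, used HISAT2 (version 2.1.0 per the labels) for alignment against Morex v3, counted them with Subread (version 1.5.2) and deposited raw counts for each transcript model, 83990 rows in 12 columns. Settings for strand, multi-mapping reads and pairs are not given in the sources used here. Coordinates and sequences were not used here. Rows passing filterByExpr (26039) were fitted with edgeR 4.0.16 (R 4.3.3, TMM factors, quasi-likelihood F test, 1 coefficient a group), with Benjamini-Hochberg adjustment over all rows. The adjusted p values of the text come from these fits or from DESeq2 1.42.0, the tool of the study, as the alternative. The script was tested on simulated counts. CPM used TMM-scaled library sizes, and log2 CPM a prior count of 2. Descriptions came from the study's supplementary lists, which were made on these libraries.

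The 4 members and all gene lists were chosen with earlier results of these data known. Named were the members, all other genes described as nicotianamine synthase, up to 6 genes of each pathway list by expression or call, the 5 rows most alike in profile over 6 and over 12 libraries, and ATR. The mitotic genes, 10 described genes alike in pattern and the neighbours by identifier were added after their values were seen. Replicates are described as biological, and no library was a copy of another of its group, since the chi-square per row between libraries of 1 group was 15.4 or more. Pairs across groups were not compared in this way. Between Sebastian mock and zeocin, same-numbered libraries deviated together (r = 0.31, 0.38 and 0.54), so the block was also fitted in those 6 libraries. The other pairs of groups did not meet this rule.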

Additional observations from a re-analysis of the deposited data

How the results depend on the processing

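For zeocin against mock in Sebastian, 0 members were called, also with RLE size factors, DESeq2, a fit of the 6 libraries compared and both fits with the replicate block. Without a filter on low counts 2 were called, and leaving out each library in turn gave 0 to 2. Blocking on replicate number gave a log2 fold change for 4HG0417690 of 3.04 over 12 libraries and 3.14 over the 6 Sebastian libraries (edgeR adjusted p = 0.407 and 0.283), the latter added after the data were seen. In the 6 libraries the block raised the calls over all rows from 375 to 668. Of the pathway genes, 0 were called for zeocin in Sebastian, but 3 without the filter, 2 with DESeq2, 1 with either replicate block and 0 to 4 leaving out 1 library. Under mock 1 was called between genotypes, 2 with DESeq2 or in a fit of the 6 libraries compared, and 0 to 1 leaving out 1 library. Under zeocin 5 were called, 3 in a fit of the 6 libraries compared, and 4 to 5 leaving out 1 library. All 4 members stayed below Sebastian in every setting run. Their median SD of log2 CPM was 1.73 in Sebastian mock and 2.51 in Sebastian zeocin, 1.7 to 1.79 and 2.51 to 2.52 with a prior count of 0.5 or unscaled library sizes. No called value turned its direction. Without Sebastian mock replicate 3, 2 values that had not passed the test changed sign: 2HG0192940 between genotypes under mock from -2.25 to 0.4, and ZIP10 (3HG0281360) for zeocin in Sebastian from -0.1 to 0.29. Depth limits the mutant values, where most libraries held fewer than 3 counts of a member.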
